A study of Mus musculus with 8 samples.

Results

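The matrix metalloproteinases (MMPs), the ADAMTS proteases and the tissue inhibitors of metalloproteinases (TIMPs) were examined in muscle satellite cells (SCs), the resident stem cells of skeletal muscle. The 10 genes were taken by name from the 52636 rows of the deposited table. They are 4 inhibitors (Timp1, Timp2, Timp3 and Timp4) and 6 proteases (Mmp2, Mmp3, Mmp9, Mmp14, Adamts1 and Adamts5). RNA from about 800 sorted SCs per library was sequenced from 4 control and 4 exercise libraries. All mice were male C57B/6J animals, 10 weeks old. Control mice were sedentary, and exercise mice were trained over 4 weeks by treadmill running (12 m/min, a slope of 5 degrees, daily bouts of 30 min on 4 days of each week). SCs were sorted from digested tibialis anterior muscle as CD45-, CD11b-, CD31-, Sca1-, CD34+ and α7-integrin+ cells. The study counts its replicates as mice, but the labels do not tie each library to a mouse of its own, so the p-values measure the spread between these libraries, part of which may be technical.

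MMPs are zinc proteases that cleave collagens, gelatins and other proteins of the extracellular matrix, and ADAMTS proteases cleave proteoglycans such as versican and aggrecan. Most are made as inactive precursors. TIMPs bind their active site and block it, and the balance between proteases and TIMPs sets how much matrix is degraded around SCs, which lie under the basal lamina of the myofibre and cross it when muscle regenerates. MMP2 is a special case, because TIMP2 and the membrane protease MMP14 form a complex that captures its precursor for activation.

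Values are FPKM, that is, reads per length of gene and per a scale of each library set by the authors, and the reads behind them were recovered from the table. The scale does not follow the number of reads: 1 read on a gene of 1 kb was worth 0.251 to 0.436 FPKM in control libraries, 0.598, 0.627 and 0.902 in exercise 1 to 3 and 3.47 in exercise 4, so FPKM values of exercise 4 are high for the reads behind them. Control libraries held 2339966 to 3013354 reads on genes and exercise libraries 1011737 to 1200221, with reads on 5169 to 7307 and on 2348 to 3289 genes. Mitochondrial transcripts took 50.2% and 68.7% of reads in exercise 3 and 4, against 2.09% to 15.3% in the other 6 libraries. Several libraries stood close to each other. Control 4 held the genes found in control 1 or in control 3 alone at a median of 0.281 and 0.714 of their shares of reads there, and exercise 3 held those of exercise 1 and exercise 4 at 0.299 and 0.677. Exercise 1 and 2 were nearly alike, with a Pearson r of 0.985 across the genes tested, where the other pairs within a group had 0.314 to 0.872. Of 12 SC markers, 7 had a read, and Pax7, Itga7, Cdh15, Calcr and Megf10 had none in any library. In each exercise library only 2 of the 12, Cd34 and Des, had reads. Chodl, at 3.29 to 16.5 FPKM in control, was at 0 in exercise (limma adjusted p = 0.00881). Cd34 went the other way, at no more than 1.48 FPKM in control and at 1.90 to 9.63 in exercise. Cd34 was not called (log2 fold change 1.68, limma adjusted p = 0.067), and neither was Des (-0.614, limma adjusted p = 0.551). All 10 fibro-adipogenic or fibroblast markers had reads, with a summed level of 1944 to 3005 FPKM in control and 2586 to 9606 in exercise libraries. Most of that sum in exercise was Gsn, and the list did not move as 1: Lum, Gsn and Clec3b were called higher and 7 were not called, among them Pdgfra, at 20.3 ± 10.8 FPKM in control and 5.56 ± 2.44 in exercise (SD, n = 4), with groups apart. The 8 macrophage and 6 lymphocyte markers had no read. In such bulk RNA, fewer cells of a type and less RNA per cell cannot be told apart.

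Of the 10 genes, 7 had a read and 5 reached a mean of 1 FPKM and were tested with limma on log2(FPKM + 1). Timp1 and Adamts5 were lower in exercise at an adjusted p under 0.05, and Timp2, Mmp2 and Adamts1 did not pass. No gene of the 10 was called higher. Those 2 of 5 calls stand beside 35.6% of all 4328 genes tested that were called in either direction, 26.8% that were called lower and 8.78% that were called higher. All 5 had a lower mean log2 level in exercise, as had 68.3% of all genes tested. Across those genes the median change was -1.42 on the log2 scale, so changes are also given relative to it.

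The sequences shown are the 250 bases before the RefSeq start of Timp1, Timp2 and Adamts1. They are the tested genes that the RefSeq promoter table for GRCm38.p6 holds, and they set a gene that was called lower beside another inhibitor and a protease that were not. Capitals mark matches on either strand to the AP-1 motif TGANTCA, the GC box GGGCGG and the TATA box TATAAA.
Timp1, chrX:20869916-20870165, plus strand: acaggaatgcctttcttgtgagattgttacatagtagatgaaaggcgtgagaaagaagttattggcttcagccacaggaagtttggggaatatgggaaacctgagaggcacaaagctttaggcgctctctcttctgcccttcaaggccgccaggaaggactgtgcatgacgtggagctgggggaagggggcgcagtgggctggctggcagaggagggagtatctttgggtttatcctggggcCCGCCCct
Timp2, chr11:118355412-118355661, minus strand: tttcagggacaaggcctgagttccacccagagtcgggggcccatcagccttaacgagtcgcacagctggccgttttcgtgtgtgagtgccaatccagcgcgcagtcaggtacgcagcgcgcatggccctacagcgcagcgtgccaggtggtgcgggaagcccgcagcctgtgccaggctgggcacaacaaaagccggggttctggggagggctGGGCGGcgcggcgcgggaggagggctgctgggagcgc
Adamts1, chr16:85803114-85803363, minus strand: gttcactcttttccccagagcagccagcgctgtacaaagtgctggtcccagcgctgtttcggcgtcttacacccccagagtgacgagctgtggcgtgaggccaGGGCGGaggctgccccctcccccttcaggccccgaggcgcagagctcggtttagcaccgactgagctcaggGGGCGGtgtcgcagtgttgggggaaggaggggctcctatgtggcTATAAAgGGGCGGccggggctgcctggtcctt
The Timp1 and Timp2 windows each held 1 GC box, starting 8 and 37 bases before the start. The Adamts1 window held 3 GC boxes and 1 TATA box, the latter 32 bases before the start. None of the 3 windows held the AP-1 letters. Of 32851 mouse windows of this length, 32.7% held a GC box, 12.4% a TATA box and 6.75% the AP-1 letters. These matches are letters in a window, and binding was not measured.

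Timp1 encodes a secreted inhibitor of most MMPs and lies at chrX:20870166-20874735 on the plus strand (GRCm38, as the deposited table gives positions), inside Syn1 on the opposite strand, with no shared exon and no Syn1 read in any library. It was at 0, 551, 312 and 194 FPKM in control 1 to 4, from 0, 1497, 1080 and 687 reads. In exercise 1 to 4 it was at 0, 1.41, 0 and 0 FPKM, from 0, 2, 0 and 0 reads. Timp1 was thus among the more abundant genes of 3 control libraries, ranking 205 of 4328 by mean level in control, but had no read in control 1 or in 3 exercise libraries, so the groups overlapped. The mean was 264 ± 230 FPKM in control and 0.353 ± 0.706 in exercise (SD, n = 4). The log2 fold change was -5.93 (SE 1.76, adjusted p = 0.0327 by limma) or -4.52 relative to the median of all genes, and the exact two-sided permutation p was 0.143. Over pooled scaled reads the control level was 575 times that of exercise, with a counting interval of 159 to 4750.

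Endothelial markers did not move together. The summed level of 8 endothelial markers was 0.0925 FPKM in control 1, 1076 to 2994 in control 2 to 4 and 4.42 to 26.2 in exercise. Of the 8 markers 3 had a read. Kdr, a receptor for VEGF, made up nearly all of the sum in control 2 to 4, the libraries with high Timp1, and was at 0 in control 1 and at 0 to 0.530 FPKM in exercise. Kdr was called lower (log2 fold change -7.82, limma adjusted p = 0.0281), with overlapping groups. Tek, a receptor for angiopoietins, went the other way, at 0 to 0.0925 FPKM in control and 4.42 to 25.8 in exercise (log2 fold change 3.92, limma adjusted p = 0.00395). The third, Flt1, was at no more than 0.145 FPKM, while Pecam1, Cdh5, Emcn, Cldn5 and Esam were at 0 in every library and the sort excluded CD31+ cells. Of all genes tested, 12.3%, Timp1 among them, had over 3 reads in each of control 2 to 4 and at most 3 in control 1 and in each exercise library. In control 3, Timp1 kept 0.638 of its share of reads in control 2, beside a median of 0.674 over 532 genes of control 2 that control 1 lacked. In control 4, it had 687 reads, where the mixture of control 1 and 3 given above comes to 714.4. The part of endothelial RNA or of shared RNA in the Timp1 difference was not tested. By limma, the adjusted p of Timp1 was 0.000102 without control 1, and the call was lost when any 1 of the other 7 libraries was left out (0.0629 to 0.0946). The log2 fold change was -8.02 without control 1 and -4.98 to -6.25 in the other 7 fits. The limma adjusted p was 0.0704 with exercise 1 and 2 averaged, 0.458 when control 4 and exercise 3 were dropped as well, 0.0664 without a filter and 0.122 with voom on the recovered reads.

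Timp2, an inhibitor that also takes part in the activation of MMP2, was the inhibitor found in every library. It lies at chr11:118301069-118355740 on the minus strand. Its level was 85.2, 155, 116 and 91.9 FPKM in control 1 to 4 and 142, 143, 68.1 and 7.13 in exercise 1 to 4. Exercise 1 and 2 lay within the control range, exercise 3 lay just below it, and exercise 4 was far lower, at 8 reads. The mean was 112 ± 31.4 FPKM in control and 90.1 ± 65.5 in exercise (SD, n = 4), with a log2 fold change of -0.91 (SE 0.962, limma adjusted p = 0.438, exact permutation p = 0.486). The difference did not exceed the spread, and it became 0.033 without exercise 4. Unlike Timp1, Timp2 was found in control 1, and its rank among all genes was 445 in control and 401 in exercise.

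Timp3, which binds to the matrix and inhibits ADAMTS proteases as well as MMPs, lies at chr10:86300372-86349506 within Syn3, on the opposite strand with overlapping exons, and Syn3 had no read. It was low, at 0, 1.20, 0.975 and 0.740 FPKM in control 1 to 4 (0, 30, 31 and 24 reads), and at 0 in exercise 1 to 3. Exercise 4 held 1 read, or 0.426 FPKM. Control 2 to 4 were thus the high libraries, as for Timp1. The ratio of pooled scaled reads was 29.9, with an interval from 5.23 to 1200, and the difference in mean log2(FPKM + 1) was -0.60 (exact permutation p = 0.143). Timp3 was under the filter and not tested by limma. Timp4 (chr6:115241892-115252205) had no read. Counting error of 3 reads allows up to 0.128 to 1.77 FPKM of Timp4 per library, so its expression was not detectable at this depth.

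**Figure D1:**
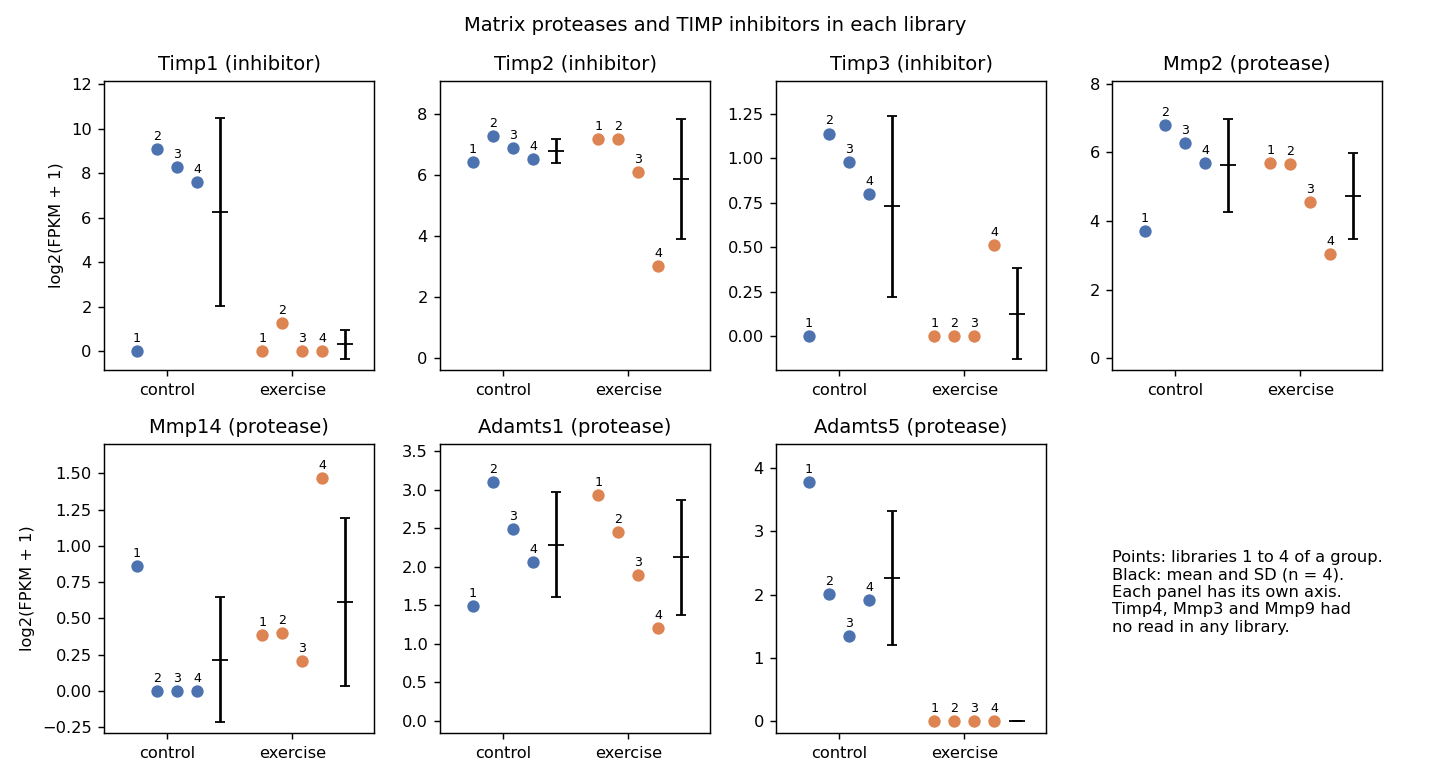
Level of each of the 7 detected genes in each library, as log2(FPKM + 1) with a separate axis in each panel, control in blue and exercise in orange. Numbers name the library, and the black bar gives the mean and SD of 4. Timp1 stands high in control 2 to 4 and at 0 in control 1, and Adamts5 is at 0 in all 4 exercise libraries.

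Among the MMPs, Mmp2 alone reached the filter. Mmp2, or gelatinase A, degrades denatured collagen and collagen IV of basement membranes, and lies at chr8:92827291-92853420 on the plus strand. It was at 12.2, 110, 75.7 and 50.5 FPKM in control 1 to 4 and at 50.9, 49.6, 22.2 and 7.21 in exercise 1 to 4. Control 1 lay among the low exercise values, and exercise 4 was the lowest, from 7 reads. Means were 62.1 ± 41.4 FPKM in control and 32.5 ± 21.4 in exercise (SD, n = 4). The log2 fold change of -0.88 (SE 0.926, limma adjusted p = 0.437, exact permutation p = 0.371) did not pass, and after quantile normalization it was 0.038. Mmp2 per Timp2 was 0.143, 0.712, 0.652 and 0.549 in control 1 to 4 and 0.357, 0.348, 0.326 and 1.01 in exercise 1 to 4, with overlapping groups.

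Mmp14, the membrane protease that activates MMP2, lies at chr14:54431612-54445364. It was at 0.815 FPKM in control 1, from 11 reads, and at 0 in control 2 to 4. Exercise 1 to 4 held 3, 3, 1 and 3 reads, or 0.305, 0.319, 0.153 and 1.77 FPKM. The difference of 0.40 in log2(FPKM + 1) rests on at most 3 reads per exercise library, equal in exercise 1, 2 and 4, and did not exceed the spread (exact permutation p = 0.371). Mmp3 (stromelysin 1, chr9:7445822-7455975) and Mmp9 (gelatinase B, chr2:164940780-164955850) had no read in any library. The limit set by 3 reads was 0.418 to 5.78 FPKM for Mmp3 and 0.213 to 2.94 for Mmp9. All 3 of these proteases were therefore low or not detectable, whereas Mmp2 was found in all 8 libraries.

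Adamts5, an aggrecanase that also cleaves versican, lies at chr16:85858170-85901125 on the minus strand. It was at 12.8, 3.03, 1.55 and 2.76 FPKM in control 1 to 4, from 237, 75, 49 and 89 reads, and at 0 in all 4 exercise libraries. Every control library was above every exercise library, and control 1 was the highest, the reverse of its place for Timp1 and Mmp2. Separate groups with exercise lower were found in 24.0% of all genes tested (31.6% in either direction, 7.62% with exercise higher), and no read in any exercise library in 30.4%. The log2 fold change was -2.26 (SE 0.61, limma adjusted p = 0.0238, exact permutation p = 0.0286, the lowest value 8 libraries can give). With 3 reads in each exercise library as a limit, exercise was at least 9.69-fold lower, and at least 4.72-fold without control 1. The limit is 1.29 FPKM in exercise 4, below the lowest control value of 1.55. Adamts5 lost its call without control 4 or without exercise 1, 2 or 3, where its limma adjusted p reached 0.0769, and under quantile normalization (0.17). The limma adjusted p was 0.0704 with exercise 1 and 2 averaged, 0.458 when control 4 and exercise 3 were dropped as well and 0.0536 without a filter. Relative to the median of all genes the fold change was -0.85 on the log2(FPKM + 1) scale, which understates it for a gene at 0, and -3.98 with voom on the recovered reads (limma adjusted p = 0.00447).

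Adamts1, which cleaves versican and is induced in injured and inflamed tissue, lies at chr16:85793827-85803113, next to Adamts5. It was at 1.81, 7.58, 4.64 and 3.17 FPKM in control 1 to 4 and at 6.66, 4.49, 2.72 and 1.31 in exercise 1 to 4, and the groups overlapped. The means were 4.30 ± 2.47 and 3.79 ± 2.31 FPKM (SD, n = 4), and the log2 fold change was -0.16 (SE 0.68, limma adjusted p = 0.853). Its fold change lay 1.25 above the median of all genes, and it turned to 1.45 under quantile normalization (adjusted p = 0.171) and to 0.36 with voom on the recovered reads. Both ADAMTS genes were detected in control, but only Adamts1 had reads in exercise, from 2 in exercise 4 to 59 in exercise 1.

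**Figure D2:**
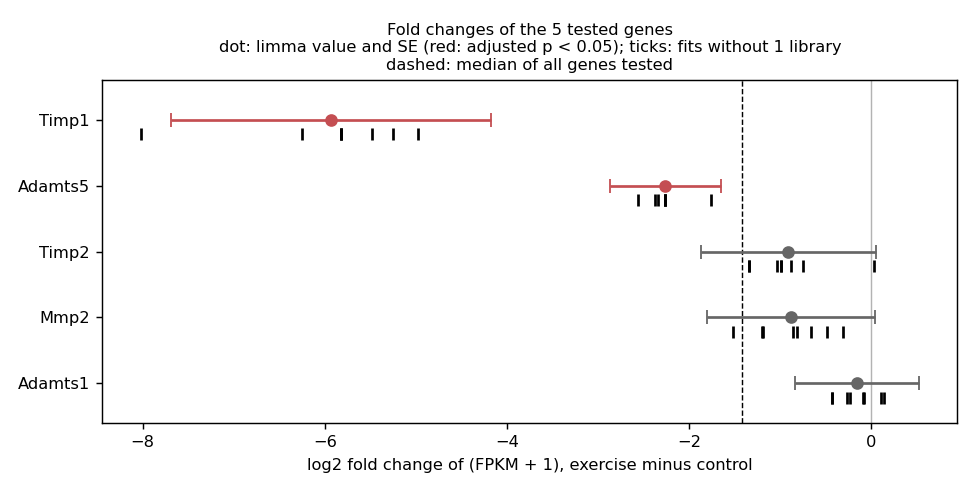
Log2 fold change, exercise minus control, of the tested genes with standard errors (dots and bars, red where called) and the values with 1 library left out (ticks), beside the median of all 4328 genes at -1.42. Timp1 (-5.93) and Adamts5 (-2.26) lie below it, and Mmp2 (-0.88), Timp2 (-0.91) and Adamts1 (-0.16) above it.

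Summed over the 10 genes, inhibitor FPKM exceeded protease FPKM in 7 of 8 libraries. Proteases came to 27.5, 121, 81.9 and 56.4 FPKM in control 1 to 4 and 57.9, 54.5, 25.1 and 10.3 in exercise 1 to 4. Inhibitors came to 85.2, 706, 429 and 287 and to 142, 144, 68.1 and 7.55. Each protease FPKM thus stood against 3.09 to 5.85 FPKM of inhibitor in control and against 2.46, 2.65, 2.71 and 0.734 in exercise 1 to 4. The value of exercise 4 rested on 7 reads of Mmp2, 3 of Mmp14 and 2 of Adamts1 against 8 of Timp2 and 1 of Timp3. So few reads do not settle which class was higher there. The log2 ratio of proteases to inhibitors averaged -2.23 ± 0.41 in control and -0.92 ± 0.92 in exercise. This difference of 1.30 became 0.85 without exercise 4. It is a description of these 10 genes and carries no test. The ratio rested on Timp1, Timp2 and Mmp2. Timp1 made up 67.7% to 77.9% of inhibitor FPKM in control 2 to 4, and Timp2 made up 94.4% to 100% in exercise and 100% in control 1. Mmp2 made up 70.1% to 91.2% of protease FPKM in exercise and 89.5% to 92.4% in control 2 to 4, but 44.1% in control 1, where Adamts5 made up most of the rest. Without Timp1 and Mmp2 the difference was -0.14, of opposite sign. In control 1, which lacks Timp1, the log2 ratio was -1.63, the nearest of the controls to the exercise libraries.

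**Figure D3:**
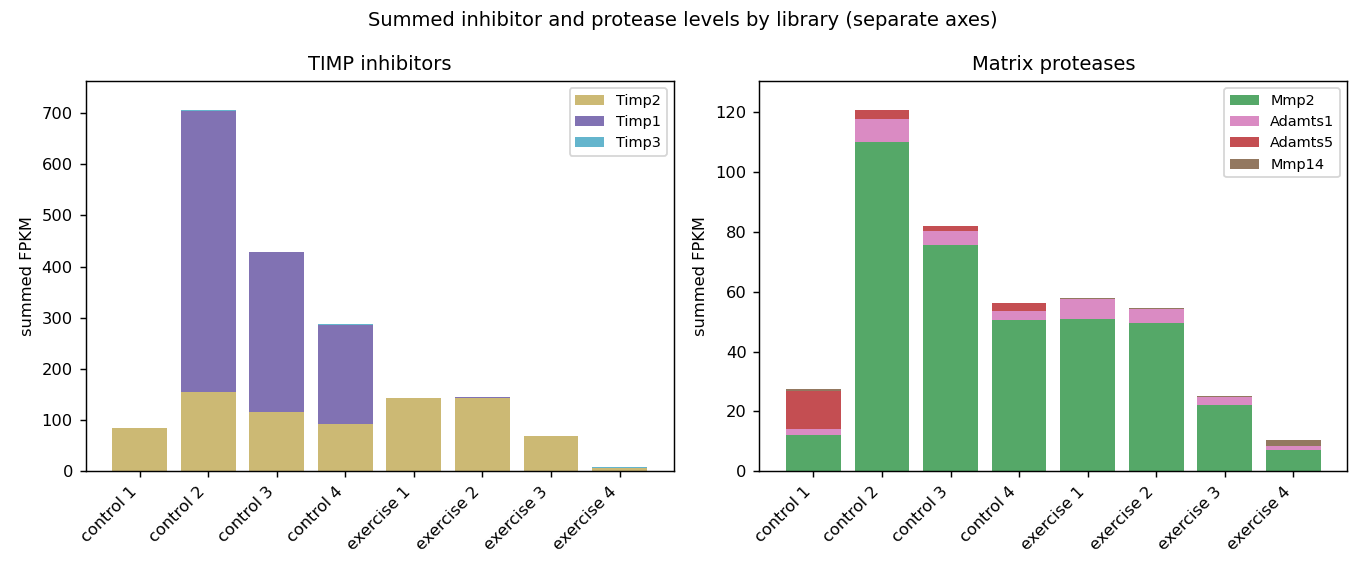
Summed FPKM of the 6 proteases and the 4 inhibitors in each library, with the share of each gene in the bar, and separate axes that start at 0. The inhibitor bars of control 2 to 4 (706, 429 and 287) are mostly Timp1, and the protease bars are mostly Mmp2 except in control 1 (44.1%).

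The order of mean levels per length over 8 libraries was Timp1 (132 FPKM), Timp2 (101), Mmp2 (47.3), Adamts1 (4.05), Adamts5 (2.51), Mmp14 (0.420) and Timp3 (0.418). This pooled order held in neither group. Adamts1 was above Adamts5 in 7 of 8 libraries, but the mean of Adamts5 in control (5.03 FPKM against 4.30) was the higher one through control 1 alone. Also in control, Timp3 (0.729) was above Mmp14 (0.204). In exercise, Timp2 (90.1), Mmp2 (32.5), Adamts1 (3.79) and Mmp14 (0.636) were above Timp1 (0.353), Timp3 (0.107) and Adamts5 (0). On the scale of log2(FPKM + 1), Timp2 lay above Mmp2 in 7 libraries, by 1.15 ± 0.85 (mean and SD of the difference), and Mmp2 above Adamts1 in 8, by 2.97 ± 0.72. The first place of Timp1 rests on 3 libraries, since it lay above Timp2 only in control 2 to 4, with a difference of -3.04 ± 3.90 over all 8. Neither Adamts1 and Adamts5 (1.07 ± 1.62), Adamts5 and Mmp14 (0.72 ± 1.53) nor Mmp14 and Timp3 (-0.014 ± 0.84) differed beyond their spread. The genes most like each in pattern were Nr4a2 and Tmem50b for Timp1 (Pearson r = 0.999 each over 8 libraries) and Ssu72 and Slc20a2 for Adamts5 (0.999 each). Irf1 (0.997) and Rpl35 (0.996) were closest to Timp2, Lpl (0.995) and Dusp1 (0.991) to Mmp2, and Mkln1 (0.956) and Hsp90b1 (0.953) to Adamts1. The 8 points include the libraries that stand close to each other, as given above.

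Further genes of matrix proteolysis were read from 91 genes in 7 lists, of which 48 had a read and 29 were tested. Of these, 9 were lower, 3 were higher and 17 did not pass, that is 41.4% called beside 35.6% of all genes, with a median log2 fold change of -1.49 beside -1.42. The split was 5 higher and 4 lower under quantile normalization, 0 higher and 9 lower after scaling to a constant sum, 0 higher and 4 lower with exercise 1 and 2 averaged, and 0 and 0 when control 4 and exercise 3 were dropped as well. Of 19 other MMPs, Mmp11, Mmp19 and Mmp23 had reads and none reached the filter, the most abundant being Mmp19 at 1.47 ± 1.47 FPKM in control and 0.234 ± 0.364 in exercise. Of 17 other ADAMTS genes, 6 had reads and 3 were tested, with no call. The median log2 fold change of those 3 was 1.83, beside -1.42. Adamts12 was at 1.49 ± 2.57 FPKM in control and 9.14 ± 6.90 in exercise (log2 fold change 1.91, limma adjusted p = 0.151). Adamts4 was at 4.67 ± 2.81 FPKM in control and 24.2 ± 17.2 in exercise (log2 fold change 1.83, limma adjusted p = 0.126), and Adamts2, a procollagen protease, at 4.69 ± 3.62 and 0.312 ± 0.253 (-1.74, limma adjusted p = 0.0878). Like Timp1, Adamts2 was at 0 in control 1.

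Of the other inhibitors of proteases, Cst3, Tfpi2 and Serpine2 were lower. Cst3 (cystatin C, an inhibitor of cysteine cathepsins) was at 1750 ± 419 FPKM in control and 296 ± 143 in exercise, with groups apart and a log2 fold change of -2.68 (SE 0.556, limma adjusted p = 0.00877). Tfpi2, a Kunitz inhibitor of serine proteases, fell by 3.65 on the log2 scale (limma adjusted p = 0.0116), and Serpine2, which blocks plasminogen activators, fell by 2.26 (limma adjusted p = 0.0298). Reck, a membrane inhibitor of MMPs, did not pass (-1.22). When the genes were divided by role after their values were seen, 3 of the 4 tested inhibitors beside the TIMPs were lower, and of 14 tested proteases 3 were lower, 2 higher and 9 not called, beside 26.8% lower and 8.78% higher of all genes tested. Under quantile normalization Tfpi2 (limma adjusted p = 0.0771) and Serpine2 (0.2) lost their calls, and Cst3 (0.0159) was the 1 of the 4 inhibitors left.

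Proteases of other classes went in both directions. Ctsb, or cathepsin B, rose from 11.4 ± 3.98 to 202 ± 140 FPKM (log2 fold change 3.51, limma adjusted p = 0.0235, every exercise library above every control). Htra1, a serine protease of the matrix, was higher too (8.13 ± 9.29 against 153 ± 112 FPKM, limma adjusted p = 0.0328). Both lost their calls after scaling to a constant sum (log2 fold change 2.89, limma adjusted p = 0.12 for Ctsb, and 3.37, 0.111 for Htra1). Their levels were lowest of the exercise group in exercise 4, at 20.1 and 9.64 FPKM. Lower were Plat, tissue plasminogen activator (0 in every exercise library, limma adjusted p = 0.0367), the sheddase Adam9 (limma adjusted p = 0.0444) and Pcsk5, a proprotein convertase (0 in every exercise library, limma adjusted p = 0.0151). Control 1 was far below control 2 to 4 for each of these. Plat was at 0.210 FPKM against 5.03 to 11.1, Adam9 at 0.106 against 4.27 to 11.4 and Pcsk5 at 1.12 against 27.1 to 78.2. The groups of Adam9 overlapped, as exercise 1 was at 0.145 FPKM. Adam17, which sheds TNF, was at 31.7, 0.228, 0.0716 and 5.51 FPKM in control 1 to 4 and at 0 in exercise, and did not pass (limma adjusted p = 0.129). By list, 1 of 2 tested ADAM sheddases and both tested genes of plasminogen activation were lower, and 2 of 7 tested genes of the other matrix proteases were higher and 1, the inhibitor Cst3, lower. These lists are short, and 26.8% of all genes tested were lower and 8.78% higher. Ctsl, or cathepsin L, was at 79.1 ± 19.6 FPKM in control and 25.1 ± 18.7 in exercise, with groups apart, and did not pass (log2 fold change -2.35, limma adjusted p = 0.104). Plau and its receptor Plaur had no read.

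Among activators, receptors and other inhibitors, 12 were tested, with 4 lower and 1 higher, beside 26.8% and 8.78% of all genes, and a median log2 fold change of -1.54 beside -1.42. Cd63, a tetraspanin that binds TIMP1, was at 22.1 to 68.1 FPKM in control and at 0 to 0.942 in exercise (log2 fold change -4.79, SE 0.653, limma adjusted p = 0.00124). Bsg, or basigin, an inducer of MMPs, was also lower (limma adjusted p = 0.0296). It was at 23.0 to 214 FPKM in control and at 0, 0, 1.99 and 32.5 in exercise 1 to 4, so the groups overlapped. Thbs1, thrombospondin 1, was higher, at 14.6 to 27.6 FPKM in control and 30.9 to 170 in exercise (limma adjusted p = 0.048, but 0.301 after scaling to a constant sum). Cd44, a hyaluronan receptor that holds MMPs at the cell surface, was at 0 to 7.11 FPKM in control and at 2.03, 1.29, 90.0 and 442 FPKM in exercise 1 to 4, so that its mean over 8 libraries, the largest of this list, rests on exercise 3 and 4. It did not pass (limma adjusted p = 0.153). Of 3 substrates tested, fibronectin (Fn1) fell by 2.46 on the log2 scale (limma adjusted p = 0.0436), whereas Dcn, or decorin, was at 1521 ± 293 and 1424 ± 241 FPKM (limma adjusted p = 0.863). Cd63, Tfpi2 and Cst3 passed in all 8 fits that leave out 1 library. Pcsk5 passed in 6, Serpine2 and Ctsb in 3, Bsg, Thbs1 and Htra1 in 2, and Adam9, Plat and Fn1 in 1.

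**Figure D4:**
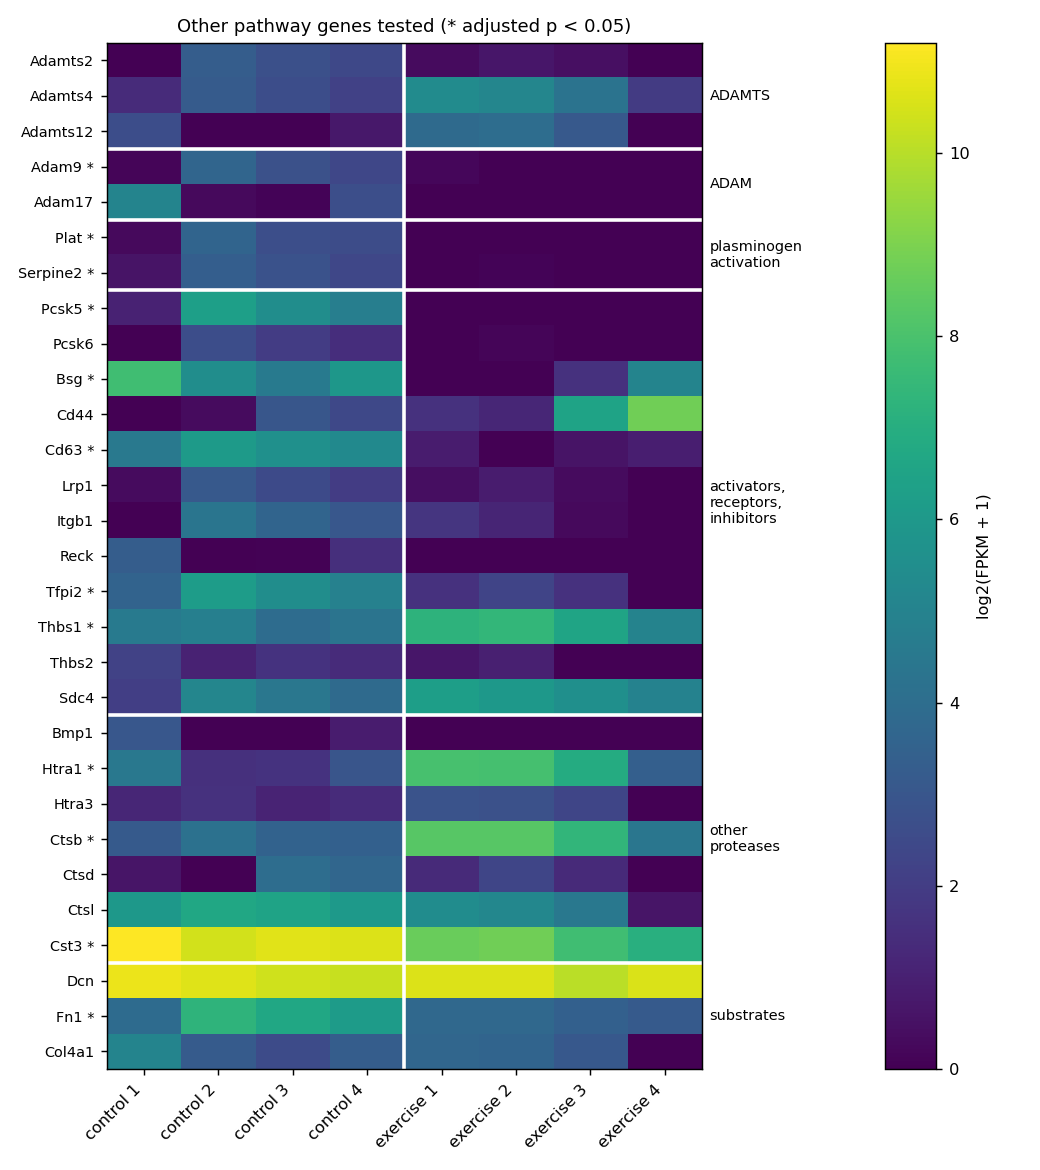
Level of the tested genes of the 7 lists in each library, as log2(FPKM + 1), with their call. Cd63 and Pcsk5 are low or at 0 in all 4 exercise libraries, and Ctsb and Htra1 are high in exercise 1 to 3 and lower in exercise 4.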

How the data were processed

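RNA of about 800 SCs per library, sorted from tibialis anterior muscle, was amplified with a single-cell kit and sequenced. The authors deposited 1 table of FPKM values for 52636 genes and 8 libraries. According to the methods and the submitters' processing notes, Bowtie 0.12.9, Cufflinks 2.1.1 and HTSeq were used with mm10. Whether counting used the strand is not given in the sources used here. Multiplied by gene length, all values were whole multiples of 1 step per library (tolerance 0.001), which gave the reads. Deposited FPKM values are scaled between libraries by the authors, by a factor that does not follow the read totals.

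Rows with the same symbol were added up (101 fewer). The 4328 genes that averaged 1 FPKM or more entered limma 3.58.1 (R 4.3.3) as log2(FPKM + 1) (eBayes with trend, Benjamini-Hochberg over all genes), exercise minus control. A fold change on this scale understates that of low genes. Single values were compared by exact two-sided permutation over 70 assignments. Tables were made in Python 3.11.15 with numpy 2.4.6, pandas 2.3.3 and scipy 1.17.1, and figures in matplotlib 3.10.9. The fit was tested on simulated data. A count of 0 was taken to allow 3 reads. Intervals (95%) and limits cover only the error of counting, because reads from amplified RNA do not each stand for a molecule.

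The 10 genes and the lists were chosen with earlier results of these data known. Named beside the 10 were list genes that were called or most abundant in their list, and the 2 genes most like each tested member. Other genes named (among them Adamts2 and Reck), and the division of list genes by role, were chosen after their values were seen. Alternatives were a pseudocount of 0.1, no filter, 1 FPKM in 4 libraries, quantile normalization, a constant sum, no trend, voom on recovered reads, the replicate number as a block, leaving out each library, and averaging exercise 1 and 2 without and with control 4 and exercise 3 left out. The qPCR and protein experiments were not analysed here. Promoter windows came from RefSeq (7 of 10 genes matched).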

Additional observations from a re-analysis of the deposited data

Results flagged for a closer look

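A library far from the other 3 of its group was found in 6 of 15 groups of 4 values, where the gap to its nearest neighbour, as a share of the range, exceeded Dixon's 95% critical value. The usual rate of about 1 in 20 cannot be set against this count, because these values share libraries. Moreover, where the other 3 libraries are all at 0, any read sets a library apart. That was so for Timp1 and Timp3 in exercise and for Mmp14 in control. On the scale of log2(FPKM + 1), Timp1 was at 0 in control 1 and between 7.61 and 9.11 in the other controls. In exercise, Timp1 was at 1.27 in exercise 2 and at 0 in the others, from 2 reads. Timp3 was at 0.512 in exercise 4, from 1 read, and at 0 in the other exercise libraries. Mmp14 was at 0.86 in control 1 and at 0 in the other controls, and at 1.47 in exercise 4, above 0.206 to 0.4 in the others. Exercise 1, 2 and 4 each held 3 reads of Mmp14, and 1 read was worth 0.102, 0.106 and 0.589 FPKM there, so exercise 4 stood apart through the deposited scale and not through more reads. The log2 ratio of proteases to inhibitors was 0.445 in exercise 4, from the few reads given above, and -1.44 to -1.3 in the others. Exercise 4 had the largest share of mitochondrial reads (68.7%) and the fewest genes with a read (2348), and the part of these in its values was not tested.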

How the results depend on the processing

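The number of genes called was 1541, and it was 840 without a filter, 941 under quantile normalization, 1059 with the replicate block, 603 when exercise 1 and 2 entered as their average and 0 when, besides, control 4 and exercise 3 were dropped, where limma gave 451 genes at an unadjusted p under 0.05. Leaving out 1 library gave 531 (without exercise 3) to 1890 (without control 1). Of the 2 calls among the 10 genes, 1 was left with quantile normalization, voom or the replicate block and 0 without a filter or with averaging, where 2 had an unadjusted p under 0.05, or 0 when control 4 and exercise 3 were dropped besides. Leaving out 1 library gave 0 to 2. The replicate block gave an adjusted p of 0.02 for Timp1 and 0.0534 for Adamts5. The labels give only a number and do not say whether same-numbered libraries were paired. Their deviations from the group means correlated at -0.0169, 0.0393, 0.0171 and 0.0161. These values cannot decide it, because several libraries stood close to each other.

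Directions turned for Timp2 without exercise 4 (0.033, range -1.35 to 0.033 over libraries left out), for Mmp2 under quantile normalization (0.038) and for Adamts1 under quantile normalization (1.45) and voom (0.36), and without control 2 or exercise 4 (0.11 and 0.14, range -0.43 to 0.14). The protease to inhibitor difference of 1.30 was 0.85 (without exercise 4) to 1.50 (without control 1) with 1 library left out and -0.14 without Timp1 and Mmp2. Other pathway calls ranged from 0 to 5 higher and from 3 to 12 lower over libraries left out. The cause was not tested.

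Depth limits the low genes: 3 reads were worth 0.213 to 2.94 FPKM for Mmp9, and the upper end is that of exercise 4, where the deposited scale makes each read worth most.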

Other observations

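Markers of further cell types showed reads beside the 10 genes. All 6 myofibre markers were detected, with a summed level of 23953 to 52110 FPKM in control and 11862 to 40667 in exercise libraries. All 6 tenocyte markers had reads, at 623 to 1115 and 446 to 1706 FPKM. The sum does not show Scx, a tendon transcription factor, which was at 0 to 0.442 FPKM in control and 3.05 to 102 in exercise (log2 fold change 5.05, limma adjusted p = 0.00844). Of 7 smooth muscle or pericyte markers, 3 had reads, at 2.88 to 46.1 and 5.72 to 89.3 FPKM. Of these, Myh11, smooth muscle myosin, had no read in control and was at 3.14 to 71.5 FPKM in exercise (limma adjusted p = 0.00646), while Acta2 was at 0 to 43.3 FPKM in control and 0 to 2.03 in exercise (limma adjusted p = 0.22). Haemoglobin genes of the erythroid list came to 119 and 57.1 FPKM in control 3 and 4, to 1.56 in exercise 1 and to 0 in the other 5 libraries. Of 6 neutrophil markers only Lcn2 had reads, at no more than 4.10 FPKM. In these lists limma also called Mb (adjusted p = 0.0231) and Myh1 (0.0174) of the myofibre lower in exercise, and Lcn2 (0.0312) higher. The part of any of these in the levels of the 10 genes was not tested.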
